A study of Mus musculus with 8 samples.

Results

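The haemoglobins, myoglobin and the enzymes of haem synthesis were followed in the soleus, a slow postural muscle of the calf. The set held 10 genes, taken by name: myoglobin (Mb), the adult alpha and beta globins (Hba-a1, Hba-a2, Hbb-b1 and Hbb-b2), the haem synthesis enzymes Alas1, Alas2 and Fech, the red cell enzyme Bpgm and the red cell anion exchanger Slc4a1. They are read by 13 of the 56605 probes of the array, and by gene name they are 10 of 37074. RNA from 8 soleus samples was hybridised to 1-colour Agilent arrays, 1 sample per array. The 4 P. gingivalis samples came from mice given Porphyromonas gingivalis, a bacterium of human gum disease, suspended in saline and delivered by feeding needle. The 4 saline samples came from mice given the saline alone. All mice were male C57BL/6J, started at 8 weeks of age, ate a high-fat diet and were 14 weeks old after 6 weeks of administration. Nothing in the labels says whether the 8 samples are 8 mice, and the p-values therefore cover sample-to-sample spread, which may be technical. Whether blood was flushed from the vessels before the muscles were taken is not given in the sources used here.

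Haemoglobin carries oxygen in red cells, as a tetramer of alpha and beta chains that each hold a haem group. Mature red cells have no nucleus, but young ones that have just entered the blood still carry globin messenger RNA, and so a muscle that holds blood also holds globin RNA. Myoglobin is the oxygen-binding globin of the muscle fibre itself and is rich in slow oxidative fibres such as those of the soleus. Both proteins need haem, whose synthesis begins with 5-aminolaevulinate synthase. Alas1 is the form found in most tissues and Alas2 the form of the red cell lineage. Ferrochelatase (Fech) inserts iron in the last step in every cell.

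The sequences of the globin and Alas1 probes are printed below, and some were compared with related genes. The Hba-a1 and Hba-a2 probes at the 3′ end share 59 of their 60 bases, offset by 1, so the signals of these 2 genes cannot be told apart. Their last 30 bases are shown with the polyadenylation signal in capitals.
Hba-a1, 3′ probe, chr11:32184457-32184486, plus strand, mm9: ggtctttgAATAAAgcctgagtaggaagaa
Hba-a2, chr11:32197275-32197304, plus strand, mm9: gtctttgAATAAAgcctgagtaggaagaag
A further Hba-a1 probe lies in the coding sequence, upstream of the first. It was not compared with Hba-a2.
Hba-a1, coding probe, chr11:32183955-32184014, plus strand, mm9: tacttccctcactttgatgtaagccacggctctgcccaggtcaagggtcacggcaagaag
The C57BL/6J strain carries the beta globin genes Hbb-bs and Hbb-bt, while Hbb-b1 and Hbb-b2 are names of the other common haplotype. The first 30 bases of the Hbb-b1 probe are set beside the same stretch of the strain's own genes from RefSeq (GRCm38.p6), with bases that differ from the probe in capitals.
Hbb-b1 probe, chr7:110976409-110976438, minus strand, mm9: tttgcttctgacatagttgtgttgactcac
Hbb-bs, chr7:103827895-103827924, minus strand, GRCm38.p6: tttgcttctgacatagttgtgttgactcac
Hbb-bt, chr7:103813889-103813918, minus strand, GRCm38.p6: tttgcttctgaTTCTgttgtgttgactTGc
Hbb-bs had 0 mismatches and Hbb-bt 6 in these 30 bases. Over the first 45 bases of the probe Hbb-bt had 7, and the first 46 bases were found in Hbb-bs. The rest of the 60 bases was not compared. The Hbb-b2 probe carries no position in the array's mm9 annotation, and it was not compared with Hbb-bs or Hbb-bt.
Hbb-b2 probe, chromosome 7, position unmapped: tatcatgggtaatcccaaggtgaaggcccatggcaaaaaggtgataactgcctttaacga
Alas1 has 3 probes along its transcript, on the minus strand of chromosome 9, shown because they gave unequal differences. Only the last carries the polyadenylation signal, in capitals, and only its last 30 bases are printed.
Alas1, upstream probe, chr9:106141046-106141105, minus strand, mm9: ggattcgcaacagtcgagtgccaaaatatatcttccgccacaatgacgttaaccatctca
Alas1, middle probe, chr9:106137803-106137862, minus strand, mm9: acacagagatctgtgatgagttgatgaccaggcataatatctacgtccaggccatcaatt
Alas1, 3′ probe, chr9:106136284-106136313, minus strand, mm9: agaattgtctttatatgtgaAATAAAttat

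Each level below is the log2 of the array's processed spot signal minus the log2 of that array's 75th percentile, so 0 is the 75th percentile and 1 more is a doubling. Differences are the P. gingivalis mean minus the saline mean on that scale, with groups from the sample records. In the authors' deposited table the column names carry the groups exchanged. Set against arrays put through a rebuild of its processing (normexp and quantile normalization), each of its 8 columns was nearest to the same-numbered array of the opposite group, within 0.001 on the log2 scale at 94.1% to 94.2% of 28250 rows, against 0.372% to 0.595% for the array of its own name. The signs of that table therefore oppose those given here. The files do not decide between the table and the records. The defining genes of slow muscle were well measured on every array, with Myh7, the slow myosin heavy chain, at 9.24 to 9.37 in P. gingivalis and 9.12 to 9.29 in saline arrays. The fast-fibre genes were uneven within the groups. Myh4, the fastest myosin heavy chain, stood at 6.76, 7.66, 4.03 and 7.11 in P. gingivalis arrays 1 to 4. In saline arrays 1 to 4 it stood at 1.95, 7.63, 7.70 and 4.98. P. gingivalis array 3 and saline array 1 were thus the lowest of their groups, and saline array 4 was low too. Differences of the members without P. gingivalis array 3 and saline array 1 are given with those for single arrays left out. All 8 arrays came from 1 slide and 1 scan, with P. gingivalis on 1 side of the slide and saline on the other, so side and group cannot be told apart. Arrays correlated at 0.987 to 0.994 within groups and 0.988 to 0.991 between them. The 75th percentile of the signal ran from 648 to 764, and P. gingivalis array 2 had the lowest and was the array whose extraction status was to be evaluated. Probes well above background numbered 34853 to 35365 on P. gingivalis arrays and 30177 to 34076 on saline arrays.

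None of the 13 member probes passed an adjusted p under 0.05 (limma, Benjamini-Hochberg over 33748 probes), where 0.163% of all probes did and 0.077% did so with the higher mean in P. gingivalis. Before adjustment 3 had a p under 0.05, those of Mb, Bpgm and the upstream probe of Alas1, each higher in P. gingivalis, where 20.6% of all probes passed and 12% passed in that direction. The same 3 probes had groups that did not overlap, as did 14.1% of all probes. By fitted difference 12 member probes were higher in P. gingivalis and 1, Fech, was lower, where 51% of all probes were higher. The median difference was 0.53 over the member probes, the value of Slc4a1, and 0.0055 over all probes tested. The member probes are not separate observations, so these counts and medians are a description. The 3′ probes of Hba-a1 and Hba-a2 share 59 of 60 bases, and the globins, Alas2 and Slc4a1 varied together over the arrays. Without P. gingivalis array 3 and saline array 1 the member median was 0.38 and 0 member probes passed. The 55 probes that passed over the whole array, 26 higher and 29 lower, came to between 2 and 10 when any single array was left out. All 13 member probes were well above background on all 8 arrays, so none was lost to the filter on dim probes, and no spot was saturated.

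**Figure D1:**
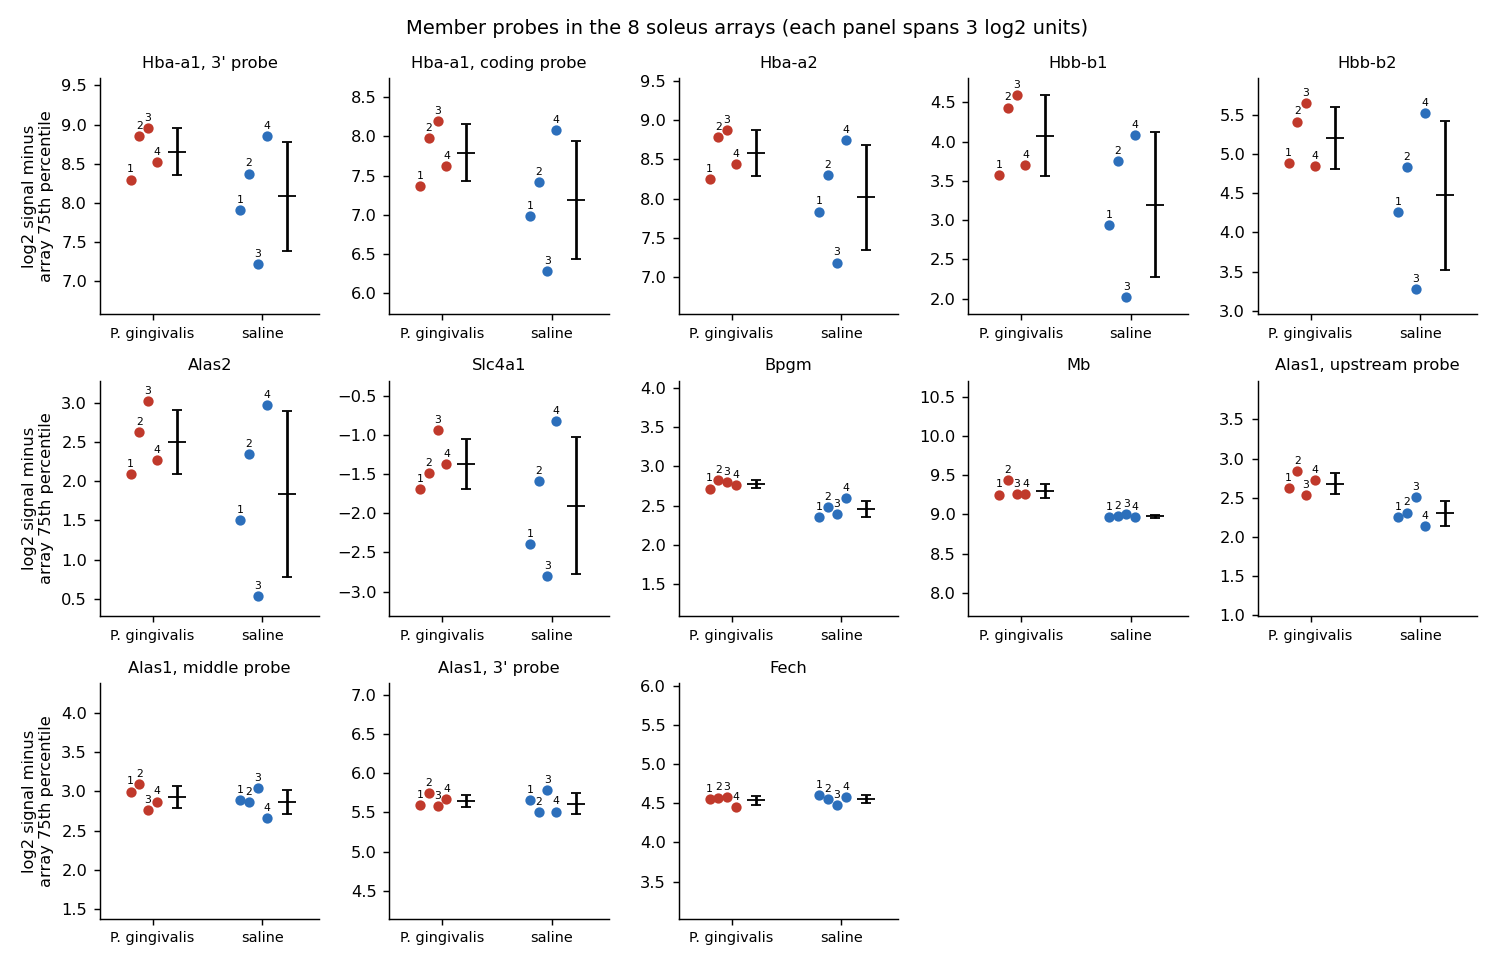
Scaled log2 level (log2 signal minus the array's 75th percentile) of each of the 13 member probes, with 1 point per array numbered by replicate, P. gingivalis in red and saline in blue, and black bars for the mean and SD of 4 arrays. Every panel spans 3 log2 units; the globins, Alas2 and Slc4a1 spread widely with overlapping groups, while Mb, Bpgm and the upstream Alas1 probe have groups that do not overlap.

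The alpha globins, the haemoglobin chains encoded on chromosome 11, varied more between arrays of a group than between the groups. Hba-a1 at its 3′ probe stood at 8.30, 8.85, 8.96 and 8.52 in P. gingivalis arrays 1 to 4, against 7.91, 8.37, 7.22 and 8.85 in saline arrays 1 to 4. Saline array 3 was the lowest of the 8 and P. gingivalis array 3 the highest, and saline array 4 lay among the P. gingivalis arrays, so the groups overlapped. The means were 8.66 ± 0.30 in P. gingivalis and 8.09 ± 0.70 in saline (SD, n = 4 each), a difference of 0.57 ± 0.33 (SE; adjusted p = 0.374, limma), or 1.48-fold with a 95% interval of 0.87 to 2.53. An interval this wide holds both no difference and a difference over 2-fold. The coding probe gave 7.37, 7.98, 8.19 and 7.62 in P. gingivalis and 6.98, 7.41, 6.28 and 8.08 in saline, a difference of 0.60 ± 0.37 (adjusted p = 0.392). Its order of arrays was much the same, with saline array 3 again the lowest. Hba-a2 stood at 8.25, 8.78, 8.88 and 8.44 in P. gingivalis and at 7.83, 8.30, 7.18 and 8.75 in saline, a difference of 0.57 ± 0.32 (adjusted p = 0.356). Each of these 3 probes is printed 10 times on the array, and the SD between the spots of a probe was at most 0.10 on any array, well below the spread between arrays. Fewer red cells in a sample and less globin RNA per cell cannot be told apart in RNA from whole muscle.

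The beta globins, which pair with the alpha chains, followed the same arrays over a wider range. Hbb-b1 stood at 3.58, 4.43, 4.60 and 3.70 in P. gingivalis arrays 1 to 4, against 2.93, 3.75, 2.01 and 4.09 in saline arrays 1 to 4. P. gingivalis arrays 2 and 3 lay above all saline arrays, and P. gingivalis arrays 1 and 4 lay among them. The difference was 0.88 ± 0.46 (adjusted p = 0.323), the widest among the members, or 1.84-fold with an interval of 0.88 to 3.86. Hbb-b2 stood at 4.89, 5.41, 5.65 and 4.84 in P. gingivalis and at 4.26, 4.83, 3.27 and 5.51 in saline. Its groups overlapped too, with saline array 4 above 3 of the P. gingivalis arrays. Here the difference was 0.73 ± 0.45 (adjusted p = 0.398), or 1.65-fold with an interval of 0.81 to 3.39. The adult beta globin of the strain's own haplotype, Hbb-bt, was no member, and stood at 6.64, 7.19, 7.51 and 6.85 in P. gingivalis and 6.12, 6.77, 5.22 and 7.52 in saline, with a difference of 0.64 ± 0.46 (adjusted p = 0.461). Embryonic globins were not detected well enough to test: Hba-x, Hbb-bh1, Hbb-bh2 and Hbb-y were below the filter on dim probes, as were Hbq1a and the neuronal globin Ngb. Of the remaining globins, Cygb, a globin of fibroblast-like cells, averaged 0.38 lower in P. gingivalis (adjusted p = 0.167) and the theta globin Hbq1b 0.20 higher (adjusted p = 0.397).

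Alas2 and Slc4a1, both made in the red cell lineage, spread over the arrays as the globins did. Alas2, on chromosome X at 147004993 to 147005052 (mm9), stood at 2.09, 2.62, 3.02 and 2.27 in P. gingivalis and at 1.5, 2.34, 0.54 and 2.97 in saline. Saline array 4 was 5.39-fold above saline array 3, so the spread inside the saline group was larger than the difference between the groups of 0.66 ± 0.49 (adjusted p = 0.477). Slc4a1, the chloride and bicarbonate exchanger that anchors the red cell skeleton, had a level below the 75th percentile on every array. It stood at -1.69, -1.49, -0.94 and -1.37 in P. gingivalis and at -2.40, -1.59, -2.80 and -0.83 in saline. Saline array 4 was the highest of the 8 here and saline array 3 the lowest. The difference was 0.53 ± 0.41 (adjusted p = 0.492). In P. gingivalis the SD was 0.41 for Alas2 and 0.32 for Slc4a1, against 1.05 and 0.88 in saline, a description of 4 arrays each with no test of the spreads.

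**Figure D2:**
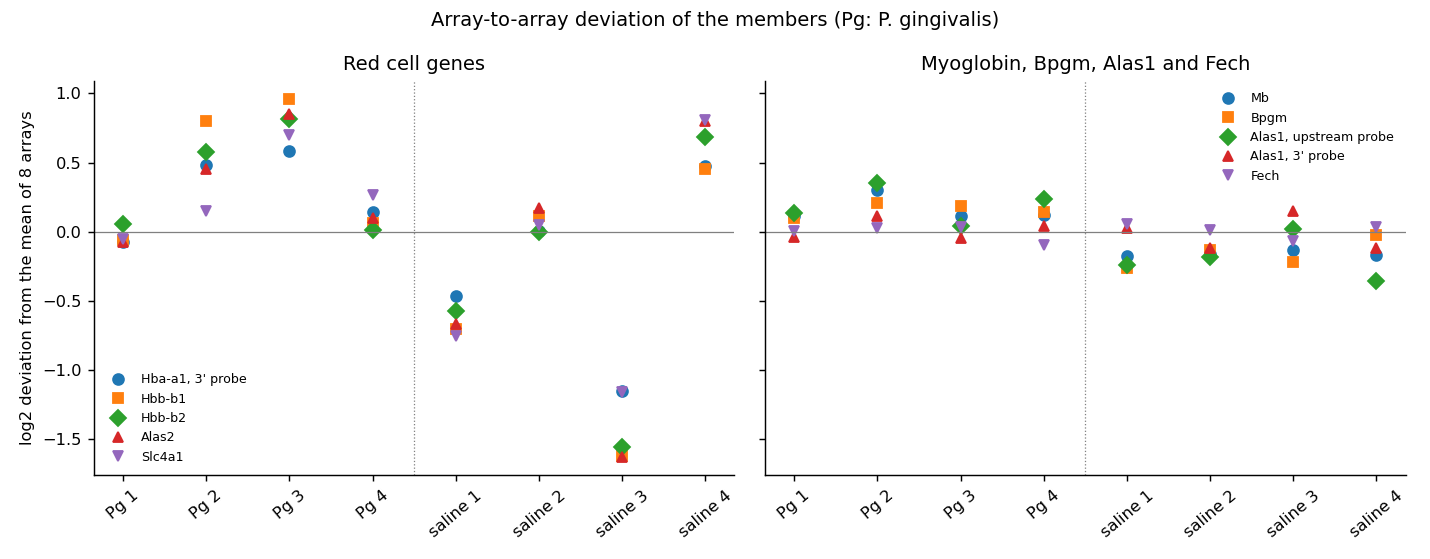
Deviation of member probes, each from its own mean over the 8 arrays, in log2 units, with P. gingivalis arrays (Pg 1 to 4) left of the dotted line and saline arrays right of it. The Hba-a1 coding probe, Hba-a2 and the middle Alas1 probe are not drawn. In the left panel the alpha globin, both beta globins, Alas2 and Slc4a1 move together, lowest in saline array 3 at -1.15 to -1.63; in the right panel Mb, Bpgm, Alas1 and Fech deviate by at most 0.35.

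Across the 8 arrays the globins, Alas2 and Slc4a1 varied together. Hba-a1 at its 3′ probe correlated with Hbb-b1 at Pearson's r = 0.988 (exact permutation over pairings, adjusted p = 0.000446 over 6 pairs; Spearman's rho = 0.976, adjusted p = 0.00238). Without saline arrays 1 and 3, the 2 farthest from the Hba-a1 median, r was 0.933 (exact p = 0.0208, n = 6), and between deviations from the group means it was 0.985. With Alas2, r was 0.989 (exact permutation adjusted p = 0.000446), rho 0.952 (adjusted p = 0.00342), 0.931 without those arrays (exact p = 0.0236, n = 6) and 0.992 between deviations. Without the 2 extreme arrays these 2 correlations stayed high, at p-values not adjusted over the 6 pairs.
Slc4a1 followed less tightly, at r = 0.949 (exact permutation adjusted p = 0.00139; rho = 0.881, adjusted p = 0.0145), and without saline arrays 1 and 3 at 0.792 (exact p = 0.0778, n = 6), where the relation no longer passed; between deviations r was 0.943. Bpgm gave r = 0.772 (exact permutation adjusted p = 0.0273; rho = 0.833, adjusted p = 0.0231), and 0.432 without those arrays (exact p = 0.381, n = 6), so the relation over all arrays no longer held without them, while between deviations from the group means of all 8 arrays r was 0.845. Mb gave 0.504 (exact permutation adjusted p = 0.254; rho = 0.524, adjusted p = 0.236), with 0.209 without those arrays (exact p = 0.621, n = 6) and 0.041 between deviations from the group means. Fech gave 0.405 (exact permutation adjusted p = 0.321; rho = 0.262, adjusted p = 0.536), 0.459 without those arrays (exact p = 0.403, n = 6) and 0.577 between deviations. With 4 arrays a group, no correlation within a group was computed. Points of 1 array share its RNA, its scaling and its hybridisation.

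Among 22211 other genes, those most like Hba-a1 over the 8 arrays included Hbb-bt (r = 0.993), Unc93a2, listed on the array as Gm9992 (0.991), Ube2l6 (0.981) and a probe with no gene name (0.977). Ube2l6 encodes an enzyme that conjugates the ubiquitin-like protein ISG15. It stood at 0.60, 1.02, 1.35 and 0.88 in P. gingivalis and at 0.42, 0.89, -0.14 and 1.18 in saline, again lowest in saline array 3. The genes most like Mb were others: Ttn, the giant spring protein of the sarcomere (0.991), the histone demethylase Kdm4b (0.977), a probe listed as NAP112173-1 (0.975), the ubiquitin ligase Rnf217 (0.975) and the noncoding RNA Pitpnm2os1 (0.974). These are the highest of many correlations over 8 points and are given as a description.

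The promoters of Hba-a1 and Alas2 are shown as the last 150 bases before the RefSeq start (GRCm38.p6). Their part in the shared variation between arrays was not tested. Capitals mark the CCAAT box, the TATA-like letters ATATAA, the GATA core GATAA and the CACCC box, each searched on both strands and none of them contained in another.
Hba-a1 promoter, chr11:32283522-32283671, plus strand, GRCm38.p6: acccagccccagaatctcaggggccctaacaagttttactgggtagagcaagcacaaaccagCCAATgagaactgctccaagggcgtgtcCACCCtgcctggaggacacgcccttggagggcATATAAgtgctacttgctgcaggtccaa
Alas2 promoter, chrX:150547267-150547416, plus strand, GRCm38.p6: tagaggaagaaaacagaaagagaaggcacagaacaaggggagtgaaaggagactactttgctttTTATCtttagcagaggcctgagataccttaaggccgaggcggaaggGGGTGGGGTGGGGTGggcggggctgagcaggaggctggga
GATAA is the core letters bound by GATA factors and CACCC those bound by Kruppel-like factors such as Klf1. Over the 250 bases before the start, Hba-a1 and Hba-a2 held all 4 motifs, as did Hbb-bs and Hbb-bt, while Alas2 held GATAA and CACCC. Of 32851 promoters of that length, 33.8% held CCAAT, 9.10% ATATAA, 22.6% GATAA and 52.0% CACCC, and 153 (0.466%) held all 4. The Hba-a1 GATAA lies upstream of the printed stretch. At a shift of 3 bases the Hba-a1 and Hba-a2 windows were equal at 297 of 297 bases, so they are not separate observations. CCAAT was found in all 3 Mb windows and in the Bpgm window, CACCC in 2 of the 3 Mb windows and both Alas1 windows, and ATATAA and GATAA in none of the windows of Mb, Bpgm or Alas1. RefSeq windows were matched for 6 of the 10 members. A match of letters is a description of the window.

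Bpgm, the mutase that makes the phosphate compound by which red cells lower haemoglobin's hold on oxygen, averaged higher in P. gingivalis without passing the threshold. It stood at 2.72, 2.82, 2.80 and 2.76 in P. gingivalis and at 2.35, 2.49, 2.40 and 2.59 in saline, read by a probe on chromosome 6 at 34454792 to 34454851 (mm9). Every P. gingivalis array lay above every saline array. The means were 2.77 ± 0.047 in P. gingivalis and 2.46 ± 0.11 in saline (SD, n = 4 each), 0.32 ± 0.07 apart (adjusted p = 0.0765), or 1.25-fold with an interval of 1.12 to 1.39. The call depended on the setting: the adjusted p was 0.0205 with median centring, which moved the median of all probes to 0.15, 0.0312 with no filter on dim probes and 0.0291 with a trended, robust variance. Relative to the all-probe shift, the median-centred difference was 0.31. Among 9 measured glycolytic neighbours of Bpgm, 0 passed in limma, 1 was at an unadjusted p under 0.05 (Gapdh, 0.17 higher, adjusted p = 0.22), 6 averaged higher and 3 lower, with a median of 0.04. Pkm, pyruvate kinase, averaged 0.12 higher, while the mutase Pgam1 averaged 0.11 lower and the kinase Pgk1 0.06 lower, with adjusted p-values of 0.34 to 0.77.

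Mb, the muscle's own oxygen store, was higher in every P. gingivalis array than in any saline array, by a small amount that did not pass the threshold. Its levels were 9.25, 9.44, 9.25 and 9.25 in P. gingivalis arrays 1 to 4, against 8.96, 8.98, 9.0 and 8.97 in saline arrays 1 to 4, from a probe on chromosome 15 at 76846069 to 76846128 (mm9, minus strand). Saline arrays differed by 0.04 in all and P. gingivalis arrays by 0.19, through array 2 alone. The means were 9.30 ± 0.09 in P. gingivalis and 8.98 ± 0.018 in saline (SD, n = 4 each), a difference of 0.32 ± 0.06 (adjusted p = 0.0656), or 1.25-fold with an interval of 1.13 to 1.38. Before scaling, the processed signal was 443280 to 449390 in P. gingivalis and 353925 to 380791 in saline arrays, also without overlap. The call and the size both depended on the processing. Mb had an adjusted p of 0.0194 with median centring (difference 0.47, or 0.32 relative to the all-probe shift), 0.0452 with the filter raised to all 8 arrays, 0.0244 with no filter and 0.0176 with a trended, robust variance. With quantile normalization the difference was 0.16 (adjusted p = 0.15) and with the processing of the deposited table it was 0.097 (adjusted p = 0.341). Leaving out any single array kept it at 0.28 to 0.34, with adjusted p-values of 0.0845 to 0.142.

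Other genes of the fibre averaged higher beside Mb. Of 12 slow-fibre genes 0 passed in limma, 4 were at an unadjusted p under 0.05 (Myl3, Tnnc1, Myl2 and Tpm3), 10 averaged higher and 2 lower, with a median difference of 0.11, where 47.7% of 22291 genes were higher, their median was -0.01 and 19.1% of them had an unadjusted p under 0.05, the share against which the counts of the other lists also stand. Myl3, a slow myosin light chain, averaged 0.20 higher and the slow troponin Tnnc1 0.19 higher, each with an adjusted p of 0.13 and groups that did not overlap, while Casq2, a calcium store protein, averaged 0.14 lower (adjusted p = 0.50) and Csrp3, a Z-disc protein, 0.10 lower (adjusted p = 0.67). Their summed level, on the linear scale where the 75th percentile is 1, was 4061 to 4444 in P. gingivalis and 3744 to 4001 in saline arrays, without overlap, while their mean log2 level was 8.06 to 8.17 and 7.95 to 8.08 and overlapped. Of 12 fast-fibre genes 0 passed, 3 were at an unadjusted p under 0.05 (Atp2a1, Tnnc2 and Myh2), and all 12 averaged higher, with a median of 0.16. Atp2a1, the calcium pump of fast fibres, averaged 0.50 higher (adjusted p = 0.0529) and the fast troponin Tnnc2 0.25 higher (adjusted p = 0.16). The summed fast level ran from 3224 to 4105 in P. gingivalis and from 2928 to 3375 in saline arrays and overlapped. Its part in the Mb difference was not tested. Without P. gingivalis array 3 and saline array 1, which had the lowest Myh4 of their groups, the Mb difference was 0.33 (adjusted p = 0.25).

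**Figure D3:**
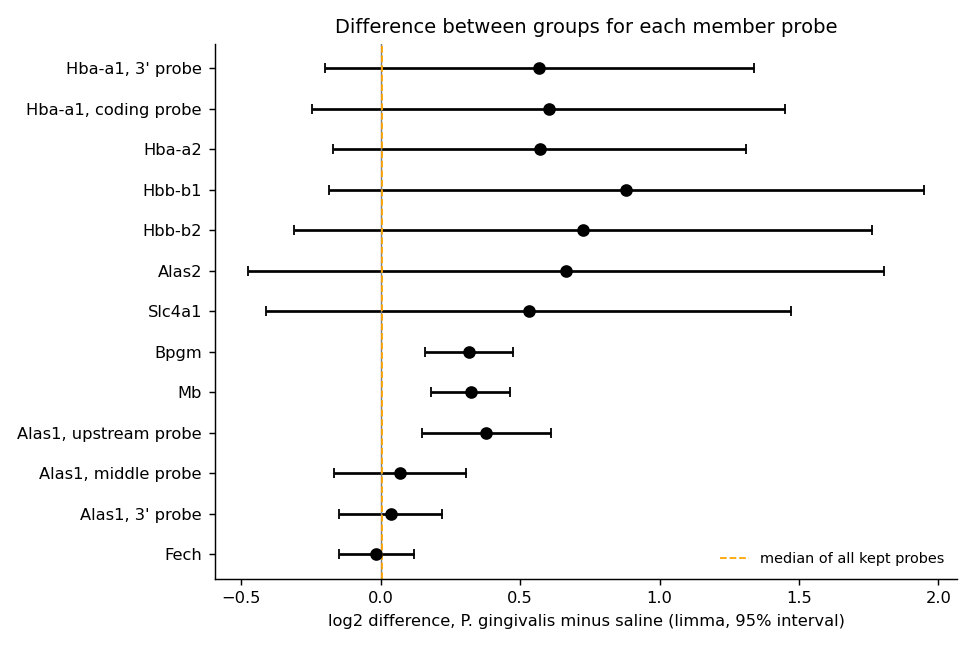
Difference between the groups for each member probe, P. gingivalis minus saline in log2 units, with 95% intervals from limma (4 arrays each); the dashed line is the median of all probes tested, 0.0055. The intervals of Bpgm, Mb and the upstream Alas1 probe lie above 0 before adjustment, and those of the globins, Alas2 and Slc4a1 are wide and include 0.

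Alas1, which starts haem synthesis in most tissues, differed by probe. The upstream probe stood at 2.62, 2.84, 2.53 and 2.72 in P. gingivalis and at 2.25, 2.31, 2.51 and 2.14 in saline, with every P. gingivalis array above every saline array, although P. gingivalis array 3 cleared saline array 3 by little. The difference was 0.38 ± 0.10 (adjusted p = 0.107), or 1.30-fold with an interval of 1.11 to 1.53. The middle probe stood at 3.0, 3.09, 2.76 and 2.87 in P. gingivalis and at 2.89, 2.86, 3.04 and 2.66 in saline, 0.07 ± 0.10 apart (adjusted p = 0.733). For the 3′ probe the levels were 5.59, 5.75, 5.58 and 5.67 in P. gingivalis and 5.65, 5.51, 5.78 and 5.51 in saline, 0.04 ± 0.08 apart (adjusted p = 0.831). At both downstream probes the groups overlapped throughout.
Within each array, the gap of upstream minus middle averaged 0.31 more in P. gingivalis than in saline, and that of upstream minus 3′ averaged 0.34 more, each with no overlap of the 4 arrays of the groups. Middle minus 3′ differed by 0.03. These gaps were looked at after the probe values had been seen. An exact permutation test was run on them, but after that choice it cannot serve as support, and they are given as a description. Which probe follows the gene's total RNA was not tested. The upstream probe passed with median centring (0.53, adjusted p = 0.026) and with a trended, robust variance (adjusted p = 0.0485).

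Fech, the enzyme that puts iron into haem, was the steadiest member. It stood at 4.55, 4.57, 4.58 and 4.45 in P. gingivalis and at 4.60, 4.56, 4.48 and 4.58 in saline. The 2 groups covered the same range. The difference was -0.016 ± 0.058 (adjusted p = 0.900), with an interval of 0.90- to 1.09-fold. Its sign turned with median centring (0.13, adjusted p = 0.177; -0.02 relative to the all-probe shift), without P. gingivalis array 4 and without saline array 1, so no direction is given for it.

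The enzymes between Alas1 and Fech stayed close to the spread of the arrays. Of 6 measured, 0 passed in limma and 0 had an unadjusted p under 0.05, with 4 higher, 2 lower and a median of 0.05. Uros, which closes the porphyrin ring, averaged 0.12 lower with groups that did not overlap (adjusted p = 0.248), while another of its probes averaged 0.16 higher. Alad, the second enzyme, and Ppox, the one before Fech, averaged 0.11 higher each, with adjusted p-values of 0.50 and 0.49. Urod, which trims the porphyrin side chains, differed by less than 0.01 (adjusted p = 0.979).
Carriers that bring iron and glycine to the mitochondrion gave 9 of 10 genes higher and 1 lower, with a median of 0.13, 0 past the threshold in limma and 2 at an unadjusted p under 0.05. These were Slc25a38, the glycine carrier of haem synthesis (0.20 ± 0.06, adjusted p = 0.143, groups apart), and Nfs1, which frees sulfur for iron-sulfur clusters (0.18 ± 0.07, adjusted p = 0.202). Tmem14c, which passes on a haem precursor, averaged 0.08 lower (adjusted p = 0.538).

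Genes of haem transport and breakdown gave 8 higher and 4 lower of 12 measured, with a median of 0.04, 0 past the threshold in limma and 1 at an unadjusted p under 0.05. This was Blvra, which turns biliverdin into bilirubin, 0.21 higher with groups apart (adjusted p = 0.12). Hmox2, the constitutive haem oxygenase, averaged 0.18 higher (adjusted p = 0.255), while the inducible form Hmox1 averaged 0.15 lower (adjusted p = 0.554) and the porphyrin transporter Abcb6 0.08 lower (adjusted p = 0.451).
In cellular iron handling 8 of 16 measured genes averaged higher and 8 lower, with a median of -0.03, 0 past the threshold in limma and 2 at an unadjusted p under 0.05. Fth1, the heavy chain of the iron store ferritin, averaged 0.17 higher (adjusted p = 0.172) and the iron sensor Aco1 0.15 higher (adjusted p = 0.179), though another Aco1 probe was 0.45 lower. The iron importer Slc11a2 averaged 0.15 lower (adjusted p = 0.335) and Ncoa4, which delivers ferritin for breakdown, 0.12 lower (adjusted p = 0.453). Their probes did not share a direction, since another Slc11a2 probe was 0.32 higher and another Ncoa4 probe 0.07 higher.
Targets of the hypoxia response were mixed as well, with 8 of 14 higher and 6 lower, a median of 0.02 and 0 past the threshold in limma. At an unadjusted p under 0.05, Adm, a vasodilator peptide, averaged 0.33 higher (adjusted p = 0.09) and Ndrg1 0.20 lower (adjusted p = 0.20). Ddit4, a stress-induced inhibitor of growth signalling, averaged 0.39 higher (adjusted p = 0.51) and Ankrd37 0.28 lower (adjusted p = 0.30). The relatives of Slc4a1, of which 6 were measured, gave 3 higher and 3 lower with a median of -0.02, 0 past the threshold and 0 at an unadjusted p under 0.05. Slc4a8 and Slc4a2 averaged 0.23 and 0.06 higher, and Slc4a3 and Slc4a11 0.10 and 0.11 lower, with adjusted p-values of 0.48 to 0.87.

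Markers of the cells that could bring globin RNA are set beside the globin values. Of 31 red cell membrane and erythroid genes 23 were measured, 15 averaged higher and 8 lower, the median was 0.06 and 0 passed in limma. At an unadjusted p under 0.05 were 5, all lower in P. gingivalis. Tspan33 averaged 0.24 lower (adjusted p = 0.15) and Add2, a membrane skeleton protein, 0.70 lower (adjusted p = 0.165). The others, the erythroid factors Tal1 and Klf1 and the blood group gene Rhd, were named after their values were seen. Add2, Klf1 and Rhd were dim. Their mean levels were -5.26, -5.46 and -3.81 in P. gingivalis and -4.56, -4.32 and -3.49 in saline. Tal1 stood at -1.77 in P. gingivalis and -1.57 in saline, and Tspan33 was brighter, at 2.44 and 2.69. With no filter on dim probes, the median difference of all probes was -0.095. Whether the dim genes followed that shift was not tested. Dmtn and Sptb, of the membrane skeleton, averaged 0.18 and 0.13 higher (adjusted p = 0.27 and 0.28), though another Dmtn probe was 0.16 lower. The summed level of the 23 genes was 105 to 117 in P. gingivalis and 95.9 to 113 in saline arrays, and many of them are also made in muscle. In that sum saline array 3 was the highest saline array. The mean log2 level of the same genes was -0.31, -0.30, -0.16 and -0.32 in P. gingivalis arrays 1 to 4. In saline arrays 1 to 4 it was -0.50, -0.17, -0.57 and 0.06, so saline array 3 was lowest and saline array 4 highest by that measure. Those below the filter included Gata1, Epb42, Rhag, Kel, Nfe2, Trim58 and Cldn13.
White cell and platelet markers gave 4 higher and 9 lower of 13 measured, with a median of -0.08, 0 past the threshold in limma and 2 at an unadjusted p under 0.05. These were the neutrophil genes S100a8 and S100a9, 2.21 and 2.10 lower in P. gingivalis (adjusted p = 0.15 and 0.19), which were high in saline arrays 1 and 2 and not in saline arrays 3 and 4. Itga2b, a platelet integrin, averaged 0.88 higher (adjusted p = 0.35). Their summed level was 6.22 to 7.41 in P. gingivalis and 5.92 to 10.1 in saline arrays. The saline array with the lowest white cell sum, array 3, was also lowest in the globins, but the highest, array 1, was the second lowest in the globins.
Endothelial markers, which stand for the vessel wall, gave 3 higher and 9 lower of 12, with a median of -0.13, 0 past the threshold in limma and, at an unadjusted p under 0.05, 1 higher and 3 lower. Egfl7 averaged 0.40 lower, Kdr, the main receptor for vascular endothelial growth factor, 0.55 lower and Ptprb, named after its values were seen, 0.29 lower, each with groups apart and adjusted p-values of 0.06 to 0.07. Pecam1 and Tie1 averaged 0.18 higher each (adjusted p = 0.23 and 0.41). The summed endothelial level was 61.1 to 69.5 in P. gingivalis and 75.6 to 80.6 in saline arrays, without overlap. The mean log2 level of the same 12 genes, to which bright genes add no more than dim ones, was 1.61 to 1.90 in P. gingivalis and 1.84 to 1.94 in saline arrays and did overlap. The part of any of these markers in the globin values was not tested.

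**Figure D4:**
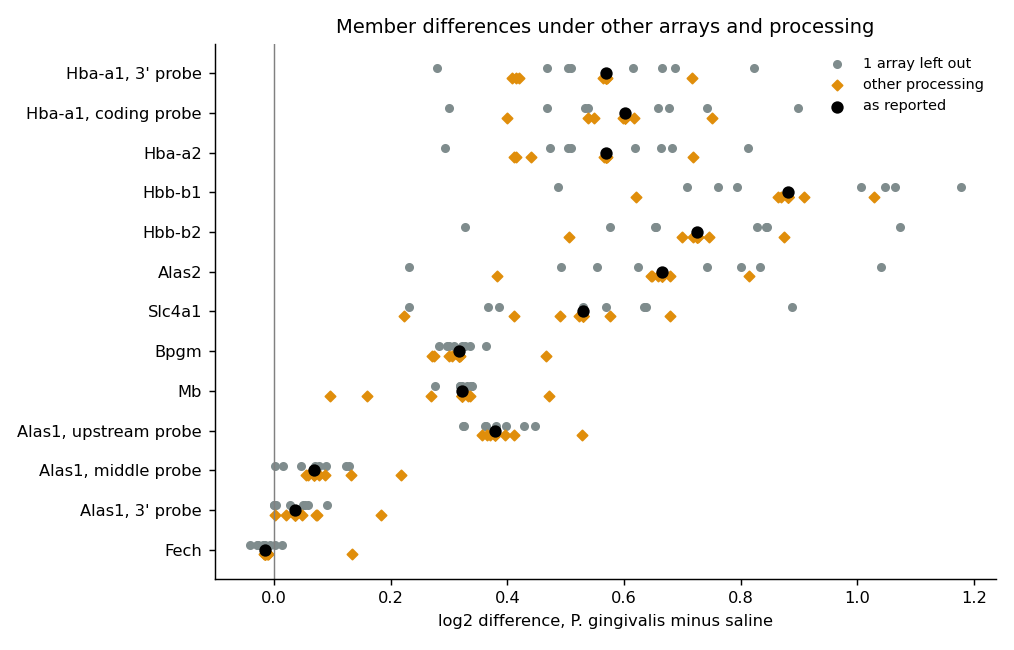
Difference of each member probe between the groups, P. gingivalis minus saline in log2 units, as reported (black), with 1 array left out at a time (grey) and under other processing (orange). The globins, Alas2 and Slc4a1 stay above 0 but move widely, Hba-a1 from 0.28 to 0.82 at its 3′ probe, while Bpgm, Mb and the upstream Alas1 probe keep to between 0.28 and 0.45 with any single array left out.

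The size of the globin differences moved most with saline arrays 3 and 4, in opposite directions. Without saline array 3 the Hba-a1 difference at its 3′ probe was 0.28 and without saline array 4 it was 0.82, with adjusted p-values of 0.551 and 0.216. Over all single arrays left out, Hbb-b1 ran from 0.49 to 1.18, Hbb-b2 from 0.33 to 1.07, Alas2 from 0.23 to 1.04 and Slc4a1 from 0.23 to 0.89. Without P. gingivalis array 3 and saline array 1 together, the difference was 0.41 for Hba-a1 at its 3′ probe and for Hba-a2, 0.40 for the Hba-a1 coding probe, 0.62 for Hbb-b1, 0.51 for Hbb-b2, 0.38 for Alas2 and 0.22 for Slc4a1, with adjusted p-values of 0.635 to 0.849. The Alas2, Slc4a1 and Hba-a1 coding differences thus shrank by over 1.5 times. Bpgm was at 0.27 (adjusted p = 0.277), the upstream Alas1 probe at 0.41 (adjusted p = 0.271), its middle and 3′ probes at 0.13 and 0.07, and Fech at -0.013. None of these settings turned the sign of a globin, Alas2 or Slc4a1 or brought one past the threshold.

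By the column names of the authors' deposited table, 10 of its 11 member rows are negative and 1 is positive, with 0 past an adjusted p of 0.05, where 1.53% of its 28250 rows pass. There Mb has a log2 change of -0.10, Bpgm of -0.27 (adjusted p = 0.111) and Hbb-b1 of -0.87, while Fech has 0.01.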

How the data were processed

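Soleus RNA (200 ng) was labelled with Cy3, per the labels, and read by Agilent Feature Extraction, version 11.0.1.1 per the file headers and 11.1 per the submitters' processing notes, with probe positions in mm9. The deposited intensity values were already background-subtracted, per the file headers. Their log2 was taken, each array's 75th percentile subtracted, control and outlier spots left out (466 probes had an outlier spot) and spots of a probe averaged. Of 56605 probes, 33748 were kept, well above background on at least 4 arrays. Groups were compared with no covariate by lmFit and eBayes of limma 3.58.1 (R 4.3.3), two-sided, after the code was tested on simulated data, with Benjamini-Hochberg adjustment over 33748 probes. The number of arrays limits the precision. In gene lists each gene was represented by its brightest kept probe. Named were all members, of each list every gene past the threshold or up to 2 per direction with the smallest p, and the 5 genes most correlated with Hba-a1 and with Mb; a few of these are not reported here. Members and lists were chosen with earlier results of these data known. The authors' deposited table holds log2 values with p-values and adjusted p-values; the score columns deposited with them (t and B by their names) were not used. Same-numbered arrays of the groups lay in the same row of the slide. Their deviations from the group means correlated at -0.050 to 0.199. So few values cannot exclude a pairing, and the main comparison used none. Sequences are from the array files and RefSeq (GRCm38.p6); all 13 member probes matched by RefSeq accession. Alternatives covered background correction, scaling, filters, probe rules, variance models, array weights, a replicate block, thresholds and arrays left out.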

Additional observations from a re-analysis of the deposited data

Results flagged for a closer look

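P. gingivalis array 2 stood apart for Mb. Its scaled log2 level was 9.44, where the other P. gingivalis arrays all stood at 9.25, a gap of 0.978 of the group's range. Its processed signal before scaling was 449390, against 443280 to 449209 in the other P. gingivalis arrays. That array had the lowest 75th percentile of the 8, 648 against 726 to 738 in the other P. gingivalis arrays, and an extraction status of to be evaluated. The gap thus stood in the scaled level and not in the signal before scaling. Why the percentile of that array was lower was not tested. Without P. gingivalis array 2 the Mb difference was 0.28 (adjusted p = 0.142, limma), with the 3 remaining P. gingivalis arrays still above the 4 saline arrays. Chance alone marks about 1 in 20 groups by this criterion, and 26 groups were examined.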

How the results depend on the processing

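Of 254 single-probe values over 20 settings, 242 kept their direction and side of the threshold, 9 came past it and 3 turned sign. Those past it were Mb, Bpgm and the upstream Alas1 probe, as given above. The 3 turned signs were all Fech, 0.13 with median centring, 0.013 without P. gingivalis array 4 and 0.00072 without saline array 1, in a range of -0.041 to 0.013 with single arrays left out. Counts of member probes past the threshold were 3 with median centring, 1 with the filter raised to all 8 arrays, 2 with no filter, 3 with a trended, robust variance, 2 at an adjusted p under 0.1, 3 at an unadjusted p under 0.05, and 0 otherwise. The cause was not tested. Probes past the threshold over the whole array (higher and lower) were 811 (536 and 275) with normexp, 702 (550 and 152) with quantile normalization, 4562 (4407 and 155) with median centring, 59 (40 and 19) with the processing of the deposited table, 542 (355 and 187) with that filter, 8415 (987 and 7428) with no filter, 26 (8 and 18) with the brightest probe per gene, 9 (2 and 7) with the mean of a gene's probes, 1036 (695 and 341) with a trended, robust variance, 202 (117 and 85) with array weights, 1459 (969 and 490) at an adjusted p under 0.1 and 6949 (4037 and 2912) unadjusted. The median of all probes was 0.15 with median centring and -0.095 with no filter. With single arrays left out the count was 2 to 10, with 0 to 4 higher and 2 to 6 lower, and without P. gingivalis array 3 and saline array 1 together it was 0 in each direction. With the replicate block 0 probes passed, 0 higher and 0 lower. Whether same-numbered samples form pairs beyond their shared slide row is not known. The member median ran from 0.29 to 0.81 with single arrays left out, and the correlation of Hba-a1 with Hbb-b1 from 0.962 to 0.995 with quantile normalization, median centring, single arrays left out and deviations from the group means, with 0.933 without saline arrays 1 and 3. With 4 arrays a group, even the 1.84-fold difference of Hbb-b1 was not detectable against the spread between arrays.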

Other observations

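Ahsp, a gene of the red cell lineage, was picked out after its values were seen. This gene, whose product holds free alpha globin, stood at -3.76, -3.12, -2.32 and -3.13 in P. gingivalis arrays 1 to 4, against -4.94, -3.03, -5.43 and -1.79 in saline arrays 1 to 4, a difference of 0.72 ± 0.78 (adjusted p = 0.63, limma). As for the globins, saline array 3 was the lowest and the groups overlapped. It is dim, with levels far below the 75th percentile.

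Slc25a37, mitoferrin, which carries iron into the mitochondria of developing red cells, averaged 0.31 ± 0.36 higher (adjusted p = 0.649), though another of its probes was 0.25 lower. Haptoglobin (Hp), which binds haemoglobin set free in plasma, averaged 0.56 lower in P. gingivalis with an SE of 0.82 (adjusted p = 0.727), and its level in saline array 1 was 5.11.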
